A study of Rattus norvegicus with 12 samples.

Results

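The genes described here encode the proteins of the cytosolic ribosome, measured in primary ventricular cardiomyocytes of newborn rats. They were taken from the gene count table by symbol: Rpl or Rps followed by a number, Rplp followed by a number, Rpsa or Fau. Of 32883 genes in the table, 80 had such a symbol, and 69 of these had at least 10 counts in at least 3 libraries and were kept. The 69 genes carry 67 distinct symbols, since Rpl21 and Rps27a each name 2 genes, and comprise 29 of the small (40S) and 40 of the large (60S) subunit. The 11 genes left out had at most 8 counts in any library, and 7 symbols (Rpl9, Rpl10a, Rpl23a, Rpl35a, Rpl38, Rpl39 and Rps29) lost their only entry in this way. The symbols Rps7, Rps13, Rps26 and Rpl37 had no entry among the 80. Just inside the rule stood the second Rpl21 entry (ENSRNOG00000032803), with at most 16 counts in a library, and just outside it a second Rpl32 entry, with at most 8.

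Every cell had received an adenovirus, and cells were collected after 2 days. The virus carried LacZ, a bacterial gene used as control cargo, or human KAT6A, a histone acetyltransferase, in 1 of 3 forms: wild type (WT), K815R, in which the lysine is replaced by an arginine that resists acetylation, or K815Q, in which a glutamine stands in for the acetylated lysine. There were 3 libraries of poly(A) RNA in each of the 4 groups. The labels do not say whether the 3 came from separate cultures, so the p-values measure the spread between these libraries, which may be technical.

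Ribosomal proteins assemble on ribosomal RNA in the nucleolus, and a cell needs nearly all of them in equal numbers, so their genes are usually expressed in concert. In the growing heart, ribosome supply sets how much protein a muscle cell can make, and it rises during cardiac hypertrophy. Their mRNAs typically start with a C followed by an unbroken run of pyrimidines, the 5' terminal oligopyrimidine (TOP) motif. Through it the RNA-binding protein LARP1 and the kinase complex mTORC1 govern their translation.

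Start sites were looked up in RefSeq on the rat assembly GRCr8, which is not the build of the counts (Rnor_6.0), by symbol: 54 of the 67 symbols had an entry. The following windows run from 60 bases before the annotated start to 20 bases from it, 5' to 3' on the gene's strand. The first 3 belong to the ribosomal protein genes that differed between groups in the count data, and the fourth to Rplp0, the ribosomal protein gene with the most counts. Capitals mark the C at the first transcribed base and the pyrimidines that follow it without a break.
Rpl34, chr2:221962264-221962343, minus strand: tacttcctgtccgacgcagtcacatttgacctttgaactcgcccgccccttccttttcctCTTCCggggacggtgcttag
Rps27, chr2:177964587-177964666, minus strand: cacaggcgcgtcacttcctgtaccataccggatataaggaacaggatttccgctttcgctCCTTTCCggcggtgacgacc
Rplp1, chr8:71290853-71290932, minus strand: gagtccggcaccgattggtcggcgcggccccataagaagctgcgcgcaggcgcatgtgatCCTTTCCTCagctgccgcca
Rplp0, chr12:46718371-46718450, minus strand: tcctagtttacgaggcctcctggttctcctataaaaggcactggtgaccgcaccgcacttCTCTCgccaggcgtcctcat

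All 4 transcripts thus begin with such a run, of 5, 7, 9 and 5 bases. Among the 54 ribosomal protein promoters, 17 (31.5%) had a C at the annotated first base followed by at least 4 pyrimidines, against 881 of 33469 (2.63%) promoters of all genes. This share depends on the annotated start being right to the base, since a start placed 1 base off can hide the run. Another motif, TCGCGA (its own reverse complement), stood in 12 of the 54 windows from 250 bases before to 50 after the start (22.2%) and in 2.29% of all promoters of that length. Capitals mark it in 2 further windows, those of Rps19, the gene most often mutated in Diamond-Blackfan anaemia, and Rpl26, a large-subunit gene.
Rps19, chr1:89608628-89608707, plus strand: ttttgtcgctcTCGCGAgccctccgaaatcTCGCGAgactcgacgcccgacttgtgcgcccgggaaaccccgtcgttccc
Rpl26, chr10:54109632-54109711, plus strand: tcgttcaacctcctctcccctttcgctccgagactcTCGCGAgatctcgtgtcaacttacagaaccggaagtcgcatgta

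Further motifs were searched on both strands of the same windows. The letters CCGGAAG, a core bound by ETS-family factors such as GABP, were found in 16 of the 54 windows (29.6%) and in 8.75% of all promoters. Myc with Max binds the E-box CACGTG, which was in 4 windows (7.41%) against 6.42% of all promoters. The TATA box TATAAA was in 5 (9.26%) against 14.2%. These are matches of letters and not measured sites.

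The delivered gene was checked first. CPM here means a gene's count after scaling all libraries to 1 depth. For Kat6a the mean was 48.1 ± 4.75 CPM with LacZ, 93.0 ± 12.3 with WT KAT6A and 108 ± 11.7 with K815R (SD, n = 3), and human and rat reads are not told apart. The libraries labelled K815Q had 46.3 ± 3.35 CPM (n = 3), no more than LacZ. They are called labelled K815Q in what follows, because the transgene is not visible in their Kat6a counts. Libraries held 19102048 to 25451686 gene counts, and 25.6% to 26.9% of reads had been set aside as aligning to more than 1 place. Summed marker levels differed between some groups and overlapped between others. The sums of the 7 endothelial markers found and of the 5 smooth muscle markers overlapped between all 4 groups. The 10 cardiomyocyte markers summed to 43180 to 45650 CPM in LacZ, 45730 to 46620 in WT, 47890 to 48850 in K815R and 44500 to 46570 in labelled K815Q. The 9 fibroblast markers summed to 11860 to 12730 CPM, 11000 to 12050, 11100 to 11550 and 11950 to 12840, in that order of groups. Such sums can hide opposite moves. In WT against LacZ, Pdgfra of the fibroblast list was called lower (log2 -0.36) and Postn higher (0.35). In labelled K815Q, 5 of the 10 cardiomyocyte markers had a log2 fold change above 0 and 5 below. The 10 macrophage markers summed to 57.9 to 74.8 CPM, 72.7 to 77.5, 76.7 to 82.3 and 74.6 to 83.2, and their median log2 fold changes against LacZ were 0.12, 0.22 and 0.27, with 0 called. No marker of these lists was at 0, and the part of cell makeup in the results was not tested. In such bulk RNA, fewer cells of a type and less RNA per cell cannot be told apart.

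Together the 80 genes matching the symbol rule, nearly all through the 69 kept, took 2.55% to 2.87% of all gene counts. In the LacZ libraries the shares were 2.79%, 2.73% and 2.55%, with a mean of 2.69% ± 0.123 (SD, n = 3). In WT they were 2.64%, 2.83% and 2.81%, with a mean of 2.76% ± 0.107. In K815R they were 2.82%, 2.65% and 2.87%, with a mean of 2.78% ± 0.114. Labelled K815Q had 2.85%, 2.76% and 2.86%, with a mean of 2.83% ± 0.0536. The order of the group means was therefore LacZ, WT, K815R and labelled K815Q, but the ranges of all 4 groups overlapped, and neighbouring means lay closer together than the SD of the groups. The share of counts from mitochondrial genes followed the same order, at 10.7% ± 0.523, 11.4% ± 1.19, 12.0% ± 0.750 and 12.1% ± 0.767 (n = 3 each). With those counts removed from the total the ribosomal protein shares were 3.01%, 3.11%, 3.16% and 3.22%, again in that order. Over those nuclear counts LacZ (2.87% to 3.14%) and labelled K815Q (3.16% to 3.26%) did not overlap.

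**Figure D1:**
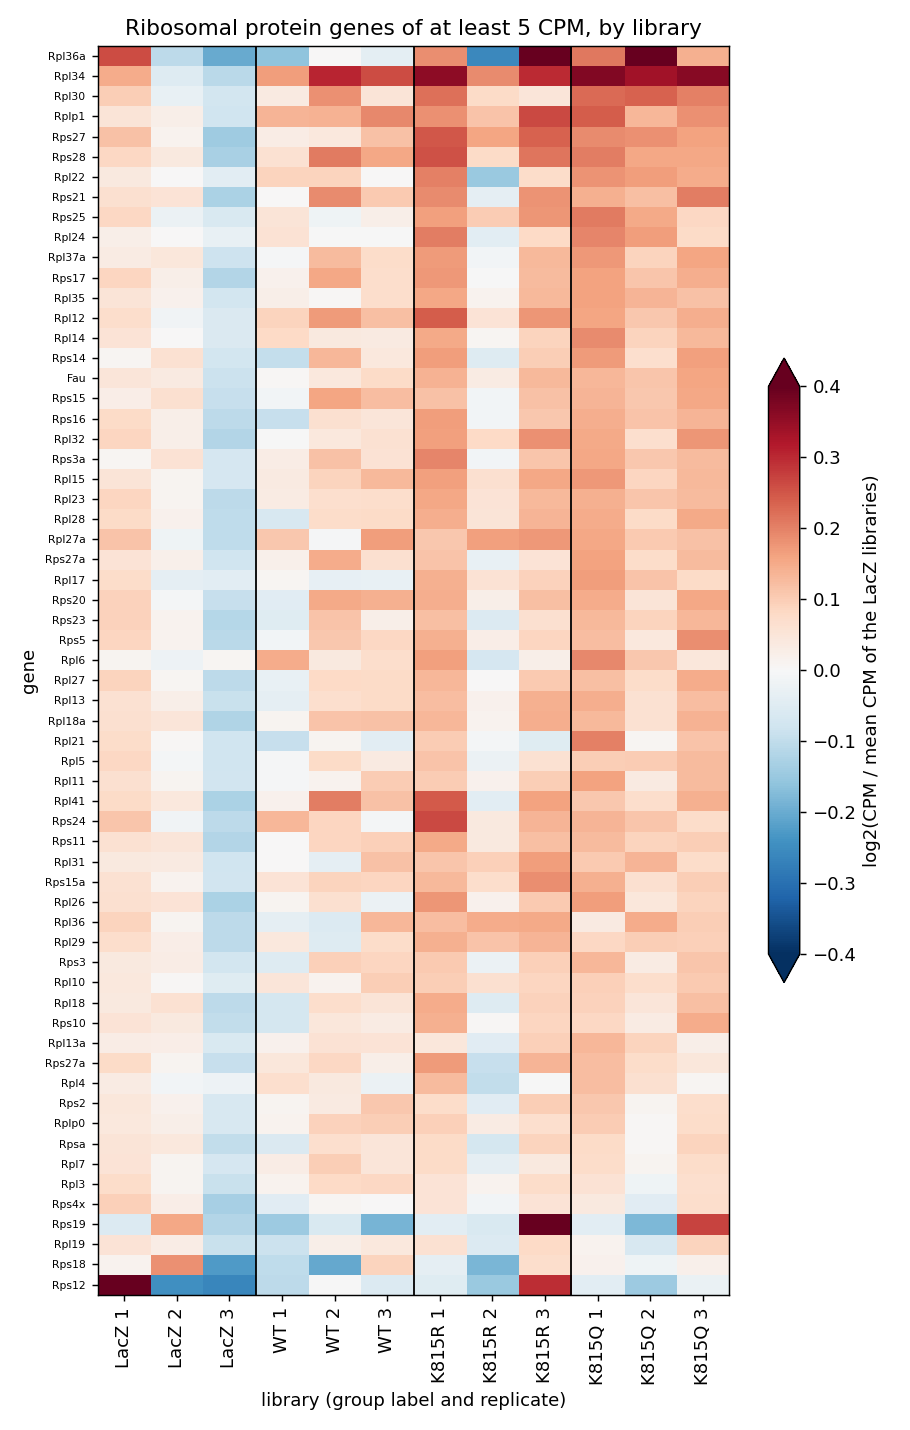
Level of each ribosomal protein gene of at least 5 CPM, except 1 that is not shown (vertical, ordered by the mean log2 ratio in labelled K815Q), in each of the 12 libraries (horizontal, black lines between groups). Colour gives the log2 ratio to the mean CPM of the LacZ libraries, red above and blue below, with values past the ends of the scale shown at its end colour. LacZ replicate 3 is a nearly unbroken blue column, and Rpl34 is red in each of the 9 libraries outside the LacZ group.

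Against LacZ, most of the 69 genes lay slightly higher in WT, K815R and labelled K815Q, and few passed the test. All 69 entered it, which was edgeR's quasi-likelihood test over 14063 genes. In WT, 58 had a log2 fold change above 0, where 52.4% of all tested genes had one. Their median was 0.05, against 0.0087 for all tested genes. Of the 69, 1 was called higher (adjusted p under 0.05, background 1.95%), 0 were called lower (background 3.39%), 4 had an unadjusted p under 0.05 (background 19.1%), and 5 lay wholly above the LacZ range (background 12.3%).

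For K815R, 67 of the 69 lay above 0 (51.2% of all genes), with a median log2 fold change of 0.10 against 0.0034 for all tested genes. Called higher were 2 (background 0.740%), 16 had an unadjusted p under 0.05 (background 13.8%), and 11 lay wholly above LacZ (background 9.11%). In labelled K815Q, 67 again lay above 0 (51.7% of all genes), with a median of 0.12 against 0.0065. Called higher were 2 (background 2.87%), 34 had an unadjusted p under 0.05 (background 24.2%), and 33 lay wholly above the LacZ range (background 13.9%). In both comparisons 0 ribosomal protein genes were called lower (background 1.74% for K815R and 4.98% for labelled K815Q). The 3 comparisons share the LacZ libraries, so they do not bear one another out. The genes also varied together from library to library (median pairwise correlation 0.72, given below). Counts of genes on 1 side, here and below, are therefore not counts of 69 separate observations.

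The shifts were small in absolute terms. Over the 63 genes of at least 5 CPM the median fold change was 1.04 in WT, 1.07 in K815R and 1.08 in labelled K815Q. The median standard error of a single gene's log2 fold change was 0.055, and the median 95% interval ran from -0.06 to 0.16 in WT, from -0.02 to 0.20 in K815R and from 0.0016 to 0.23 in labelled K815Q. For comparison, the 1771 tested genes of at least 100 CPM had medians of 0.0057, 0.0068 and 0.01. The medians were 0.05, 0.09 and 0.12 for genes of the small and 0.05, 0.10 and 0.12 for those of the large subunit, a difference that was not tested.

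**Figure D2:**
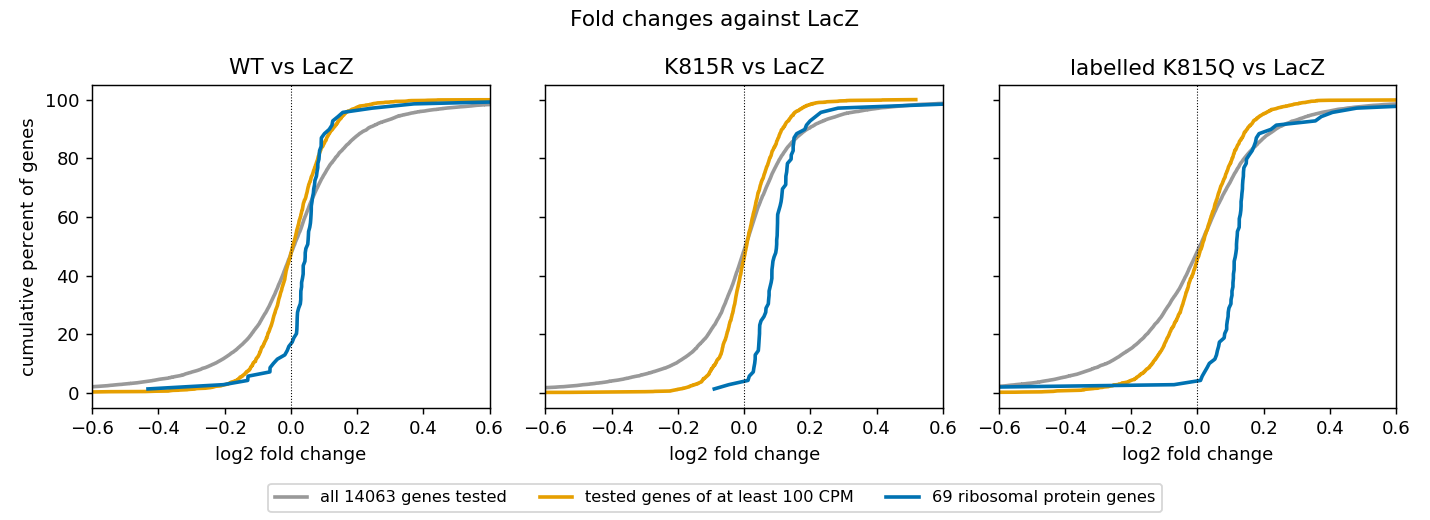
Cumulative percent of genes (vertical) below each log2 fold change against LacZ (horizontal) for WT, K815R and labelled K815Q, with the most extreme values outside the axis. The curve of the 69 ribosomal protein genes is steep and lies to the right of the curves for all 14063 tested genes and for the 1771 of at least 100 CPM, most clearly in the third panel, where its median is 0.12.

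Removing 1 library moved these medians a good deal. Without LacZ replicate 3 they were 0.0049 in WT, 0.05 in K815R and 0.07 in labelled K815Q. Without LacZ replicate 1 the median for WT was 0.08.

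Over the 4 groups, 3 ribosomal protein genes passed the joint test for any difference (8.13% of all tested genes did): Rpl34, Rps27 and Rplp1. With edgeR's quasi-likelihood test, Benjamini-Hochberg adjusted over all genes, p was 0.00259 for Rpl34, 0.0396 for Rps27 and 0.0475 for Rplp1. Without the filter on low counts, or with DESeq2, 5 genes passed it. Leaving out single libraries left between 1 and 6.

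Rpl34 (ENSRNOG00000016387) encodes a protein of the large subunit. Its level was 232, 202 and 194 CPM in the LacZ libraries and 235, 259 and 251 CPM in WT. It was 268.5, 239 and 258 CPM in K815R and 270.5, 264 and 269.7 CPM in labelled K815Q. All 9 libraries of the other groups thus lay above the 3 LacZ libraries, although WT replicate 1 did so by little. In edgeR's quasi-likelihood test, Benjamini-Hochberg adjusted, Rpl34 rose 1.19-fold in WT (log2 0.25, SE 0.0604, adjusted p = 0.0166) and 1.22-fold in K815R (log2 0.28, SE 0.0603, adjusted p = 0.01). In labelled K815Q it rose 1.28-fold (log2 0.36, SE 0.0604, adjusted p = 0.000731). Of the 69 genes, only Rpl34 was called in all 3 comparisons. The third call held in 12 of 12 fits with 1 library left out. Here and below, these 12 fits include those that left both compared groups whole and so tested the call less. The calls for WT and K815R held in 8 of 12 each, and without LacZ replicate 3 the same test gave an adjusted p of 0.106 for WT and 0.0695 for K815R. Without LacZ replicate 2 these were 0.103 and 0.0687, and the remaining losses came from leaving out WT replicates 2 or 3 and K815R replicates 1 or 3.

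Rps27 (ENSRNOG00000016961) encodes a zinc-finger protein of the small subunit. The LacZ libraries had 508, 473 and 424 CPM, and WT had 478, 482 and 508 CPM, inside or just above that range. K815R had 557, 523 and 552 CPM, and labelled K815Q had 534, 532 and 523 CPM, all above every LacZ and WT library. It rose 1.16-fold in K815R (log2 0.22, SE 0.0558, adjusted p = 0.0373 in the quasi-likelihood test of edgeR, Benjamini-Hochberg adjusted). The same test gave a log2 fold change of 0.18 with an adjusted p of 0.0518 in labelled K815Q, and 0.06 with 0.593 in WT. The K815R call held in 7 of 12 fits with 1 library left out and was lost without LacZ replicate 3 (log2 0.15, adjusted p = 0.22 by that test), LacZ replicate 2, K815R replicates 1 or 3, or labelled K815Q replicate 1. Its paralog Rps27l, which lies outside the symbol rule, stood at 143 ± 0.224 CPM in LacZ and 138 ± 12.8 in K815R (n = 3 each).

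Rplp1 (ENSRNOG00000013874) encodes a stalk protein, which together with Rplp0 and Rplp2 forms the arm that recruits elongation factors to the large subunit. It stood at 276, 270.1 and 252 CPM in LacZ and 292, 293 and 304 CPM in WT. The values were 302, 288 and 319.5 CPM in K815R and 314, 291.5 and 301.5 CPM in labelled K815Q. As for Rpl34, the 9 libraries of the other groups all lay above the LacZ libraries, and these were the only 2 of the 69 for which that held. The log2 fold change was 0.16, 0.19 and 0.19 in the 3 comparisons. In edgeR's quasi-likelihood test, Benjamini-Hochberg adjusted, the adjusted p was 0.0803 in WT and 0.0521 in K815R, and only labelled K815Q passed, at 0.0305. That call held in 8 of 12 fits with 1 library left out, and was lost without LacZ replicates 2 or 3 or without labelled K815Q replicates 1 or 3.

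**Figure D3:**
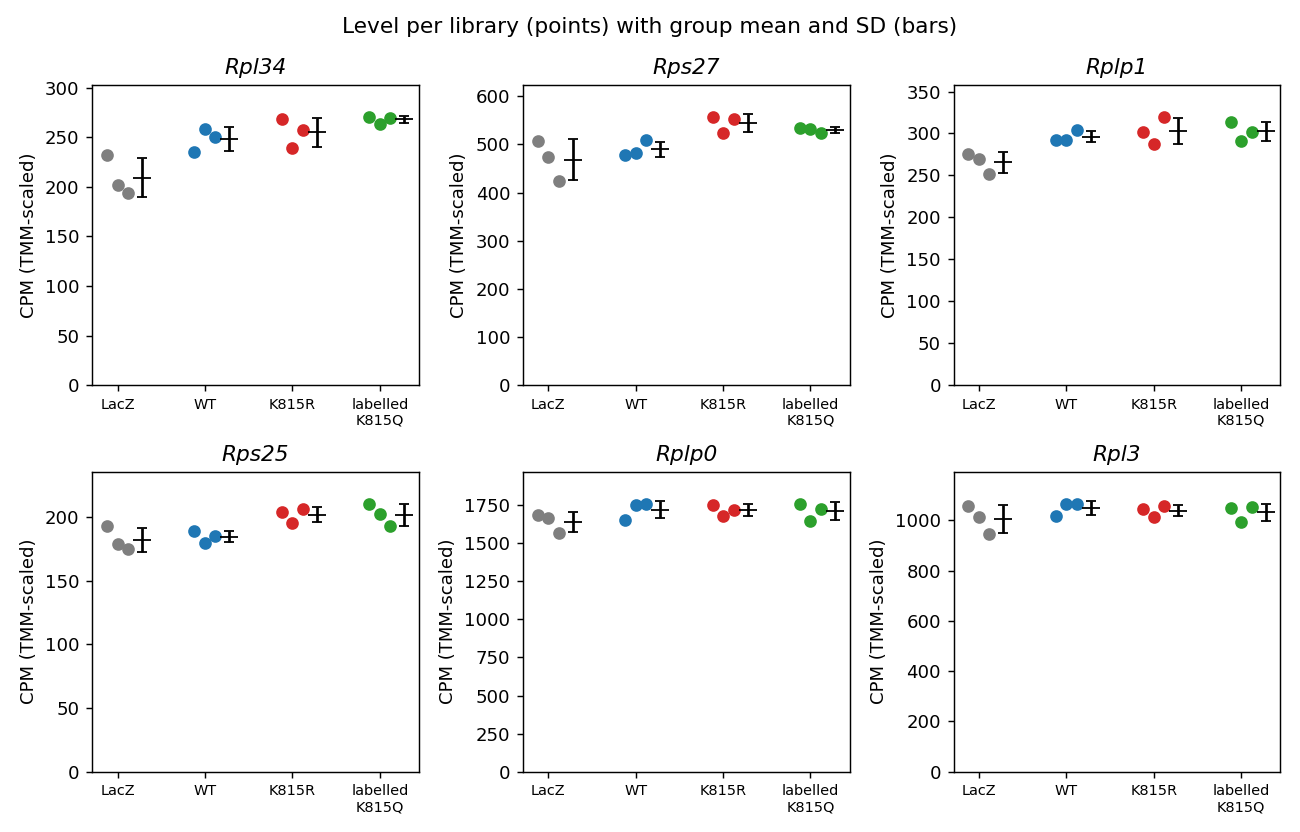
CPM of 6 ribosomal protein genes (vertical, from 0) by group (horizontal). Points are single libraries and bars give the group mean with its SD (n = 3). For Rpl34 and Rplp1 every library of the other groups lies above the LacZ libraries, for Rps27 and Rps25 those of K815R and labelled K815Q do, and for Rplp0 and Rpl3 the groups overlap.

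Of the other stalk genes, Rplp0 (ENSRNOG00000001148) held 6.14% of all ribosomal protein counts. It had 1686, 1664 and 1566 CPM in LacZ, and 1653, 1748 and 1753 CPM in WT. It had 1752, 1678 and 1717 CPM in K815R and 1757, 1644 and 1725 CPM in labelled K815Q. The groups overlapped throughout, and its log2 fold change against LacZ was 0.07, 0.07 and 0.06. Rplp2 gave only 0.579 to 1.47 CPM, a level at which no difference of this size could be resolved.

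Among other genes of the small subunit, Rps25, whose protein takes part in initiation at viral internal entry sites, came nearest to Rps27 in pattern among the levels looked at here. LacZ had 193, 179 and 174 CPM and WT 188.5, 179.7 and 185 CPM. K815R had 204, 195 and 206 CPM and labelled K815Q 210.2, 202 and 193 CPM. K815R and labelled K815Q thus stood above LacZ and WT without overlap, by a margin of less than 1 CPM at the closest points between labelled K815Q and LacZ. Its log2 fold change of 0.15 in both comparisons with LacZ had an adjusted p of 0.145 for K815R and 0.0715 for labelled K815Q by edgeR's quasi-likelihood test, Benjamini-Hochberg adjusted.

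Rps28 gave 263, 255 and 227 CPM in LacZ and 259, 287 and 277 CPM in WT. The K815R libraries had 297, 262 and 288.5 CPM, and labelled K815Q had 286, 276.5 and 277 CPM. Its log2 fold change was 0.14, 0.18 and 0.17, and only labelled K815Q lay wholly above LacZ. Fau, which encodes a ubiquitin-like protein fused to a small-subunit protein, had 288, 285 and 262 CPM in LacZ against 305, 301 and 311 CPM in labelled K815Q (log2 0.13). Rpsa, known also as the laminin receptor precursor, ranged from 863 to 956 CPM in LacZ and from 880 to 982 over the other 9 libraries, with log2 fold changes of 0.02, 0.03 and 0.06. Rps3, which lies where mRNA enters the small subunit, had log2 fold changes of 0.05, 0.06 and 0.09, with overlapping groups. The entry Rps27a (ENSRNOG00000004426), a fusion of ubiquitin with a small-subunit protein, had 0.05, 0.08 and 0.08, and the second entry of that symbol (ENSRNOG00000034246) 0.08, 0.05 and 0.12.

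In the large subunit, Rpl3, which reaches to the peptidyl transferase centre, had 1058, 1013 and 944 CPM in LacZ and between 993 and 1065 CPM in the other 9 libraries. Its log2 fold changes were 0.06, 0.05 and 0.04, and the groups overlapped. Rpl10, which joins the subunit last, in the cytoplasm, had the narrowest spread between replicates (a coefficient of variation of 2.32%). It stood at 619, 602 and 580.1 CPM in LacZ, 643, 628 and 638 in K815R and 642, 630.3 and 645.5 in labelled K815Q. Both of these groups lay wholly above LacZ, with log2 fold changes of 0.08 and 0.09 that were not called. Rpl5 and Rpl11, which carry the 5S ribosomal RNA and bind Mdm2 when ribosome assembly fails, each had log2 fold changes of 0.04 in WT and 0.11 in labelled K815Q, and of 0.05 and 0.07 in K815R.

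Rpl29 had 221.5, 215 and 196 CPM in LacZ and 217, 204 and 222 in WT. It had 233, 228 and 231.5 CPM in K815R and 223.5, 226 and 225 in labelled K815Q. Although none of its differences was called, K815R and labelled K815Q each lay wholly above both other groups, and K815R wholly above labelled K815Q. Rpl30 was among the genes with the highest fold change in labelled K815Q, at 21.3, 21.4 and 20.95 CPM against 19.5, 17.8 and 17.3 CPM in LacZ (log2 0.22, SE 0.0744, not called). Rpl12, at the base of the stalk, had 300.1, 283 and 274.5 CPM in LacZ and 304, 322 and 311 CPM in WT, with log2 fold changes of 0.13, 0.16 and 0.14. Rpl22, whose paralog Rpl22l1 can take its place, had 207, 202 and 196 CPM in LacZ and 228, 226.5 and 224 CPM in labelled K815Q (log2 0.17, not called). Rpl41, which encodes the smallest of the proteins, had 0.12, 0.13 and 0.11 with overlapping groups.

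At the other end, the lowest log2 fold changes among genes of at least 5 CPM were within their errors of 0. In WT these were Rps19 (-0.13, SE 0.157), Rpl36a (-0.06, SE 0.247) and Rps18 (-0.06, SE 0.110). In K815R they were Rps18 (-0.05), Rpl4 (0.01) and Rpl21 (0.02), and in labelled K815Q Rps12 (-0.07), Rps18 (0.0094) and Rpl19 (0.01). The direction of most of these depended on single libraries.

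Between WT, K815R and labelled K815Q no ribosomal protein gene passed the test. The comparisons with labelled K815Q are comparisons of labels, given the Kat6a level in those libraries. K815R against WT had 57 of 69 above 0 (49.0% of all genes), a median log2 difference of 0.04, 5 genes with an unadjusted p under 0.05 (background 13.8%) and 0 called by edgeR's quasi-likelihood test, higher or lower (background 1.32% and 0.882%). There 6 genes lay wholly above WT (background 9.49%), among them Rps27 (log2 0.15), Rps25 (0.13) and Rpl29 (0.11). Labelled K815Q against WT had 63 above 0 (48.8%), a median of 0.07, 7 genes with an unadjusted p under 0.05 (background 14.4%) and 0 called (background 0.718% and 0.356%). In that comparison 17 genes lay wholly higher (background 9.00%) and 1, Rps9, lay wholly lower (background 10.3%). K815R against labelled K815Q had 20 above 0 (49.8%) and a median of -0.02, with 0 called (background 0.213% and 0.149%), 0 at an unadjusted p under 0.05 (background 11.4%), and 2 wholly higher, Rpl29 and Rps9 (background 8.28%). DESeq2 called 0 in each of these 3 comparisons as well. The median 95% interval for a gene of at least 5 CPM was -0.08 to 0.15 for K815R against WT, -0.06 to 0.18 for labelled K815Q against WT and -0.14 to 0.09 for K815R against labelled K815Q. The groups are thereby not shown to be alike. Without K815R replicate 2 the median for K815R against WT was 0.08, and without K815R replicate 1 it was 0.01.

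The genes varied together from library to library. Over the 12 libraries, and for the 63 genes of at least 5 CPM, the median Pearson correlation of log2 CPM over 1953 pairs of genes was 0.72 (Spearman 0.68), and 99.6% of pairs were above 0. With each group's mean removed it was 0.68 (Spearman 0.62), so the genes also moved together where libraries of the same group differed. Each gene's correlation with the mean of the others had a median of 0.86, and the lowest, 0.34, was that of Rps19. The other 10198 genes of that level had a median of 0.02 with the same mean. That median is of signed values, in which high correlations of opposite sign cancel, so it does not show how unusual 0.86 is. These points share library, depth and scaling. Without the libraries farthest from the median, LacZ replicate 3 and K815R replicate 1, the median pairwise correlation over the remaining 10 was 0.54. With group means removed, the farthest were LacZ replicate 3 and K815R replicate 2, and without them it was 0.48. Without LacZ replicate 3 alone the medians were 0.58 and, with group means removed, 0.62.

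LacZ replicate 3 was the lowest of all 12 libraries for 53 of the 63 genes and the lowest of its own group for 62. K815R replicate 2 was the lowest of its group for 59 and the lowest of all for 7. The median log2 ratio of the 63 genes to the LacZ mean was 0.06, 0.02 and -0.09 in the LacZ libraries, and 0.01, 0.07 and 0.07 in WT. It was 0.14, 0.0034 and 0.11 in K815R and 0.14, 0.09 and 0.13 in labelled K815Q. K815R replicate 2 therefore lay inside the LacZ range, while all 3 libraries labelled K815Q lay above it. LacZ replicate 3 and K815R replicate 2 were also the 2 libraries with the most gene counts, 23870785 and 25451686, but LacZ replicate 1, with 23646893, had the highest share and median of its group. The part of depth in these differences was not tested. With both left out, 0 ribosomal protein genes were called in WT, and 1 each in K815R and in labelled K815Q, where the medians were 0.0041, 0.09 and 0.07. In those fits the adjusted p of Rpl34 in WT was 0.0549 by edgeR's quasi-likelihood test.

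Replicates differed little for most of these genes. The coefficient of variation within groups had a median of 4.82% over the 63 genes of at least 5 CPM, against 6.02% for all tested genes of that level. For the 58 of at least 100 CPM it was 4.76%, against 4.36% for the 1771 tested genes of that level. There were 3 exceptions above 10%. Rpl36a (22.7%) had 95.6, 74.2 and 69.4 CPM in LacZ and 71.4, 79.9 and 77.7 CPM in WT. It had 90.8, 66.7 and 118 CPM in K815R and 92.3, 137 and 87.9 CPM in labelled K815Q, so its log2 fold change of 0.41 there (SE 0.244) rested mainly on 1 library. Rps12 (16.9%) had 213 CPM in LacZ replicate 1 and 197 in K815R replicate 3, against 134 to 161 CPM in the other 10. Rps19 (14.6%) had 111 CPM in K815R replicate 3 and 99.6 CPM in labelled K815Q replicate 3, against 72.5 to 92.0 CPM in the other 10. Rpl26, which shares the TCGCGA motif with Rps19, varied by only 5.24% and stood at 287 to 354 CPM.

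The 6 genes under 5 CPM were the least even, with coefficients of 24.5% to 111%. Rpl7a had 2.22, 2.27 and 0.369 CPM in LacZ and 0.456, 4.13 and 4.37 CPM in WT. It had 0.154, 0.158 and 8.17 CPM in K815R and 5.25, 3.50 and 0.313 CPM in labelled K815Q. Its 12 values thus spanned 52.9-fold with no order by group. Rps9 had 5.36 CPM in LacZ replicate 1 and 5.10 CPM in K815R replicate 1, and 1.07 to 2.64 CPM elsewhere. Rps6, the substrate of the S6 kinases, ranged from 2.21 to 7.45 CPM, both in K815R. In these files it is nearly absent, at a mean of 4.27 CPM, as are Rpl8 (1.04 CPM) and Rplp2 (1.02 CPM), although every ribosome carries their proteins.

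**Figure D4:**
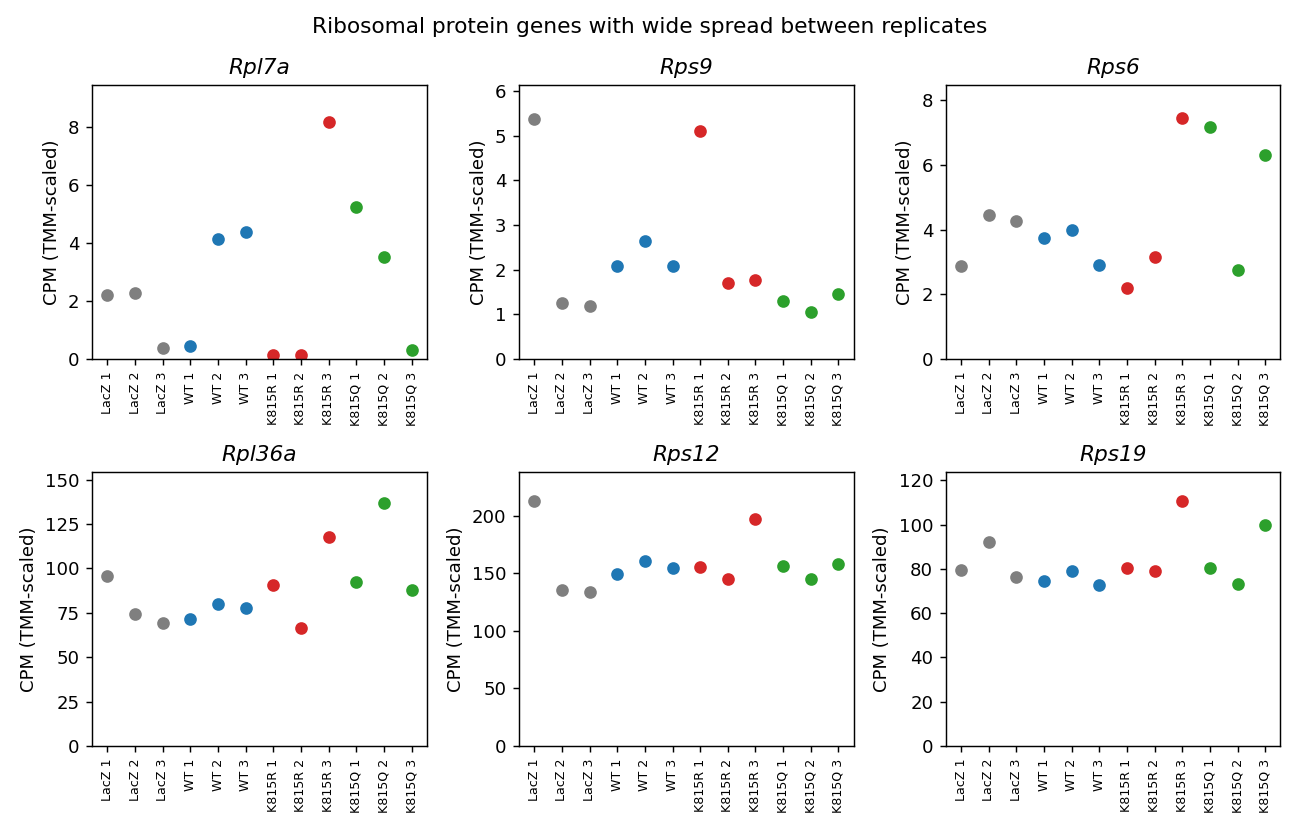
CPM (vertical, from 0) of 6 ribosomal protein genes with a wide spread, in each of the 12 libraries (horizontal, coloured by group). In each panel some libraries stand far above the rest of their own group. K815R replicate 3 is the highest of its group for Rpl7a, Rps6, Rpl36a, Rps12 and Rps19, but not for Rps9. LacZ replicate 1 is the highest of its group for Rps9, Rpl36a and Rps12.

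Such counts may not give the level of the gene. The count table leaves out reads that aligned to more than 1 place, and ribosomal protein genes have many near-identical processed copies. In RefSeq on GRCr8, 1044 entries, here called copies, add to 1 of the 74 symbols of the rule an ending -ps or an l and a number. The median was 14.5 per symbol and the range 1 to 36. Not all of them are annotated as pseudogenes (for Rpl31, 10 of 22), and their likeness in sequence was not examined. The 12 symbols whose highest entry was under 5 CPM had a median of 16.5 copies, and the other 62 a median of 14.0. Some copies had more counts than the named gene or a comparable number, though read placement was not examined: Rps18l1 had a mean of 418 CPM where Rps18 had 9.13 CPM, Rps19l2 had 121 CPM beside 83.1 CPM for Rps19, and Rps4x-ps9 had 94.3 CPM beside 332.5 CPM for Rps4x. Counts per gene are not corrected for length either, so levels are compared here between libraries and not between genes. How far lost reads shaped the differences between groups was not tested.

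The TOP start was set beside the fold changes. The 17 genes with the pyrimidine run had median log2 fold changes of 0.05, 0.10 and 0.13 in WT, K815R and labelled K815Q, and the 34 other genes of at least 5 CPM with a promoter entry had 0.04, 0.08 and 0.11, a difference that was not tested. Of the 17 listed genes whose human counterparts are mutated in Diamond-Blackfan anaemia, 13 were tested, with medians of 0.04, 0.10 and 0.11. The others had no entry (Rps7 and Rps26) or too few counts (Rps29 and Rpl35a). Of these 13, 0 were called in WT, 1 in K815R (Rps27) and 0 in labelled K815Q, against backgrounds of 1.95%, 0.740% and 2.87% called higher, which also apply to the lists that follow.

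Other mRNAs of the TOP class, among them those of the elongation factors, had smaller medians, and the difference from the ribosomal protein genes was not tested. The 16 tested had medians of 0.0043, 0.04 and 0.05, with 0, 0 and 1 called higher and 0 called lower. Of the 16, 10, 11 and 11 had a log2 fold change above 0, as did 52.4%, 51.2% and 51.7% of all tested genes. Eef1a1 and Eef2 were among the others. Eef1a1 had log2 fold changes of -0.03, -0.02 and -0.10, and Eef2 of -0.03, -0.03 and -0.08, none of them called.

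Genes for ribosome assembly and ribosomal RNA synthesis were listed as well. Of 59 tested assembly factors, 0 were called in WT or K815R, and 2 were called higher in labelled K815Q: Dkc1, the pseudouridine synthase of ribosomal RNA (log2 0.22), and Gnl3, a nucleolar GTPase (0.20), where the background was 2.87%. Medians over the list were 0.08, 0.03 and 0.04. Of 15 tested genes for RNA polymerase I and its factors, Taf1d was called higher in all 3 comparisons (log2 0.33, 0.31 and 0.39). It encodes a subunit of the promoter selectivity factor, and stood at 27.2, 24.2 and 26.3 CPM in LacZ against 29.5 to 35.7 CPM in the 9 libraries of the other groups. Taf1c, of the same complex, was called higher in WT (log2 0.32). Rrn3, which brings the polymerase to that complex, was called lower in labelled K815Q (-0.34), where the background called lower was 4.98%. None of the 6 tested chaperones dedicated to single ribosomal proteins was called. With single libraries left out, the calls of Taf1d held in 10, 8 and 12 of 12 fits, that of Rrn3 in 12, of Dkc1 in 9, of Taf1c in 7 and of Gnl3 in 4. The Gnl3 call was lost in every fit without a LacZ or labelled K815Q library. That of Taf1c was lost in all fits without a LacZ or WT library, except the fit without WT replicate 1.

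Among 19 tested regulators of ribosomal protein genes and mRNAs, Myc, a transcription factor known to drive them, was called higher in each group. It stood at 19.4, 19.4 and 16.8 CPM in LacZ and 22.2, 22.4 and 22.9 CPM in WT. It had 22.05, 23.0 and 23.5 CPM in K815R and 23.8, 24.6 and 21.7 CPM in labelled K815Q. These 9 libraries all lay above LacZ. In edgeR's quasi-likelihood test, Benjamini-Hochberg adjusted, the log2 fold changes of Myc were 0.28 (adjusted p = 0.0265), 0.30 (0.0242) and 0.33 (0.00731), and without both LacZ replicate 3 and K815R replicate 2 the first 2 were no longer called (adjusted p = 0.148 and 0.231). The third was lost without LacZ replicate 3 alone (log2 0.27, adjusted p = 0.0546 in the same edgeR test). With 1 library left out, the WT call was lost without LacZ replicate 3 or any WT replicate, and the K815R call without LacZ replicate 3 or K815R replicates 2 or 3. LacZ replicate 3 was the lowest library for Myc as it was for most of the ribosomal protein genes.

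Larp1 was called lower in WT (log2 -0.21, adjusted p = 0.0284 by the same edgeR test) and in labelled K815Q (-0.19, adjusted p = 0.0464). It had 86.1, 85.0 and 88.1 CPM in LacZ, 71.0, 76.3 and 76.3 CPM in WT and 72.8, 78.4 and 76.5 CPM in labelled K815Q, without overlap with LacZ. In labelled K815Q, Mtor (-0.27), Rptor (-0.24) and Eif4ebp2 (-0.23) were also called lower. Called lower were thus 1 of the 19 in WT (background 3.39%) and 4 in labelled K815Q (background 4.98%). Mtor had 69.1, 79.2 and 81.3 CPM in LacZ and 61.0, 65.1 and 64.2 CPM in labelled K815Q. In K815R the only other call in the list was Eif4ebp1, which was higher (log2 0.18). With single libraries left out, the Larp1 calls held in 6 and 4 of 12 fits, Mtor in 9, Rptor in 8, Eif4ebp2 in 6 and Eif4ebp1 in 4. The Larp1 call in WT was lost in every fit without a LacZ or WT library. That in labelled K815Q was lost in all fits without a LacZ or labelled K815Q library, except the fit without labelled K815Q replicate 2. The list as a whole had medians of 0.0072, -0.0011 and -0.0065. These are mRNA levels and say nothing of the kinase's activity or of translation.

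The mitochondrial ribosome, is built from a separate set of nuclear genes. Its 75 tested genes had medians of 0.04, 0.03 and 0.06, of which 1 was called higher in WT (Mrps6, log2 0.25), 0 in K815R and 4 in labelled K815Q (Mrpl18, Mrps21, Mrps6 and Mrps17, from 0.21 to 0.23), with 0 called lower. Backgrounds called higher were 1.95%, 0.740% and 2.87%. Leaving out single libraries kept these calls in 9 of 12 fits for Mrps6 in WT, and in 9, 8, 5 and 3 for the others in the order given.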

How the data were processed

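The authors deposited raw counts per gene, with 5 counters that name no gene; these counters (12 libraries: 25.6% to 26.9% of reads in the multiply aligned class, 11.7% to 12.9% in no feature) stayed out of library sizes and tests. Per the submitters' processing notes, Trimmomatic 0.39, HISAT2 2.2.1, HTSeq 0.6.1, edgeR and the build Rnor_6.0 were named, without their roles. Neither annotation nor strand setting is given in the sources used here, so antisense and overlapping genes are uncertain. Groups came from the sample titles. Replicates differed beyond sampling noise (chi-square per degree of freedom 4.54 to 8.74), so each counted once. Deviations of same-numbered libraries correlated above 0.1 in all 3 pairs between K815R and labelled K815Q (0.178, 0.264 and 0.191). No other comparison had all its pairs above it. The labels state no pairing, and libraries of different numbers were not compared, so a pairing is not established.

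Counts were TMM-scaled to CPM and tested with edgeR 4.0.16 in R 4.3.3 (filterByExpr, minimum count 10, minimum total 15; quasi-likelihood test, robust, 1 model of all 12 libraries; Benjamini-Hochberg over 14063 genes; called at an adjusted p under 0.05; common biological coefficient of variation 0.0581). A count of 3 equals 0.118 to 0.156 CPM. Correlations used log2 of CPM plus 0.5. The procedure was tested on simulated data. The genes named were those called, the 3 highest and 3 lowest of at least 5 CPM per comparison, a panel, the 5 genes of highest and of lowest level, and called genes of the other lists; Rps25, Rps28, Rpl12, Rpl26 and Rpl29 were named after their values were seen. Values of 2 genes are not reported here. The genes and lists were chosen with earlier results of these data known. Alternatives were RLE and upper-quartile scaling, TMM factors without the ribosomal protein genes, other filters, DESeq2 1.42.0, a replicate block, fits of 6 libraries, nuclear counts only, and leaving out each library.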

Additional observations from a re-analysis of the deposited data

How the results depend on the processing

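The median log2 fold change of the ribosomal protein genes moved by less than the replicate SD of 0.059 in each of the 6 comparisons under all 9 alternatives other than leaving out 1 library, and scaling moved the median of all genes by at most 0.012. That SD is larger than the medians of WT against LacZ (0.05), K815R against WT (0.04) and K815R against labelled K815Q (-0.02). For these a fall to 0 would also have stayed within it, so this says little of their stability. Counts of calls were less stable. Against LacZ, the call count went from 2 to 4 in K815R and from 2 to 6 in labelled K815Q without the low-count filter, and to 1 in K815R with only the 6 libraries compared. Over the 4 groups it went from 3 to 5 without the filter and to 5 with DESeq2. Same-numbered libraries correlated above 0.1 in 6 of 18 pairs (-0.26 to 0.34), and in all 3 pairs only between K815R and labelled K815Q, where the replicate block left 0 calls and a median of -0.02 and changed no call. For the other comparisons the libraries share only a number; a replicate block gave 1, 2 and 4 calls against LacZ in WT, K815R and labelled K815Q. An alternative chosen after seeing the data, leaving out LacZ 3 and K815R 2, gave 0, 1 and 1. With 1 library left out, calls ranged from 0 to 1, from 0 to 5 and from 1 to 7, from 1 to 6 over the 4 groups, and stayed at 0 between WT, K815R and labelled K815Q; without LacZ 2 or LacZ 3 they were 0, 0 and 1. Medians then ranged from 0.0049 to 0.08, 0.05 to 0.14 and 0.07 to 0.16 against LacZ, from 0.01 to 0.08 for K815R against WT, 0.04 to 0.08 for labelled K815Q against WT and -0.05 to 0.01 for K815R against labelled K815Q. Shares of counts ranged from 2.64% to 2.76% in LacZ, 2.73% to 2.82% in WT, 2.74% to 2.85% in K815R and 2.81% to 2.86% in labelled K815Q; over nuclear counts alone they were 3.01%, 3.11%, 3.16% and 3.22%. Direction changed with 1 library left out for Rps27 (-0.0056 to 0.12), Rpl36a (-0.158 to 0.0877) and Rps18 (-0.168 to 0.0336) in WT, for Rps18 (-0.149 to 0.0532), Rpl4 (-0.0492 to 0.0633), Rpl21 (-0.0290 to 0.0533) and Rpl36a (-0.0224 to 0.389) in K815R, and for Rps12 (-0.186 to 0.184), Rps18 (-0.0927 to 0.109) and Rpl19 (-0.0285 to 0.0520) in labelled K815Q, all against LacZ. It also changed for Rpl34 (-0.0001002 to 0.0841) and Rplp1 (-0.0050 to 0.0683) between K815R and WT, and for Rplp1 between K815R and labelled K815Q (-0.0373 to 0.0386; -0.000455 with 6 libraries). Without LacZ 3 and K815R 2, Rps27 in WT was at -0.0063, Rpl21 in K815R at -0.0128, and Rps18 and Rpl19 in labelled K815Q at -0.0942 and -0.0299. The causes were not tested. None of these genes had been called in the comparison named.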
